A study of Mus musculus with 25 samples.

Results

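CD8a+ and CD11b+ conventional dendritic cells (cDC) sorted from the Peyer's patches of untreated mice were compared gene by gene. The comparison rests on 8 of the 25 arrays of the series, 3 of CD8a+ cDC and 5 of CD11b+ cDC, chosen by their titles and the absence of R848 treatment. All animals were wild-type female C57BL/6 mice of 6 to 8 weeks, and each replicate pooled the Peyer's patches, the lymphoid follicles of the small intestine, of 42 mice. Cells were released by enzymatic digestion (collagenase, DNase), bead-enriched for CD11c and then sorted by flow cytometry. CD8a+ cDC were CD11c-high MHCII+ SIRPa- BST2- CD11b- CD8a+ CD4-, and CD11b+ cDC were CD11c-high MHCII+ SIRPa+ BST2- CD11b-intermediate CD8a- CD4-. RNA (2 to 20 ng) was amplified and hybridised to Affymetrix Mouse Gene 1.0 ST arrays. The design text calls the replicates independent and both subsets dome cDC, whereas the sample labels place both in the interfollicular T cell zone. The same 2 subsets were also sorted 9 h after mice were gavaged with R848, a synthetic TLR7 ligand, from 5 (CD8a+) and 3 (CD11b+) replicates of the same strain, sex and age. The titles of these arrays give both the treatment and steady state, and their other labels give R848. Untreated SIRPa+ CD11b- CD8a- cDC, called DN in the labels, and untreated TIM-4- and TIM-4+ LysoMac, which are macrophages of the same tissue sorted as MHCII-low BST2+ CD4+, serve below as reference levels.

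Conventional dendritic cells carry antigen to T cells and fall into a pair of lineages. The CD8a+ or cDC1 lineage depends on the transcription factors IRF8 and BATF3, senses dead cells and double-stranded RNA, and presents captured antigen on MHC class I to CD8+ T cells. The CD11b+ or cDC2 lineage depends more on IRF4 and related factors, carries many phagocyte receptors and is known for presentation on MHC class II to CD4+ T cells. In Peyer's patches, cDC meet antigen that M cells bring across the epithelium.

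The arrays of both subsets lie in different array sets whose tables list their genes in different orders, so rows were matched to the R848 arrays of the same subset before any comparison. Accepted rows correlated with the R848 arrays of their subset at 0.968 (CD11b+) and 0.952 (CD8a+), against 0.0232 and 0.0504 in the deposited order. Row partners were chosen by likeness to these arrays, so the rise follows from the matching and does not check it. Matching both untreated sets directly to each other gave the same partner for 99.7% of 24254 rows accepted by both routes. Both routes choose partners by likeness of signal, and rows accepted by 1 route alone are not counted. The share therefore does not check such rows, and genes called below were left out more often than others, as the closing section gives. Of 19938 genes on the array, 18184 (91.2%) had a value in both subsets. The untreated CD8a+ arrays had a median deposited log2 signal of 4.52 to 4.60 and the untreated CD11b+ arrays 4.76 to 4.86, and this offset was removed across all arrays before the test. Subset and array set cannot be told apart in the untreated comparison, whereas both R848 groups lie in a single set and needed no matching. The DN cDC and LysoMac arrays lie in the set of the untreated CD11b+ arrays and took the same row partners. Their levels below would share any mismatch and cannot check the matching. Matching can also favour genes with little response to R848, because the R848 arrays served as its guide. Arrays of the same group correlated at 0.979 to 0.995, and no arrays were identical. All levels below are log2 signals after offset correction, which rank samples for a gene but not genes against each other, since each gene has its own probes.

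The genes of the sort proteins were examined first. Sirpa read 4.38, 5.95 and 6.12 in the CD8a+ arrays and 10.1 to 10.4 in the CD11b+ arrays, and Itgam, which encodes CD11b, read 3.94 to 4.23 against 6.79 to 7.50. Both followed the sort, with no overlap between groups. Itgax, which encodes CD11c and was selected in both sorts, differed by 0.02 ± 0.13 (log2, SE), and H2-Ab1, an MHC class II chain, by 0.21 ± 0.16. Bst2 differed by -0.44 ± 0.14 and Cd4 by -0.59 ± 0.16, both under the 2-fold minimum used below, and Cd4 was far below its level of 9.90 and 10.6 in the LysoMac (TIM-4-, then TIM-4+). Cd8a had no accepted row in the CD11b+ set and was not tested. Its deposited log2 signal was 10.1 in the untreated CD8a+ set, and after R848 it was 10.5 in CD8a+ against 6.94 in CD11b+ cDC.

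A gene was called where limma's moderated test with Benjamini-Hochberg adjustment over all 18184 genes gave an adjusted p under 0.05 and the difference reached 2-fold. On that rule 1084 genes (5.96%) differed between untreated subsets, 454 (2.5%) higher and 630 (3.46%) lower in CD8a+ cDC. Every count of called list members below is to be read beside these shares. In a fit limited to genes with a mean log2 signal of at least 6, the share called was 11.4%. Differences of 4-fold or more were seen for 105 genes higher and 176 lower in CD8a+ cDC. In 1063 of the 1084 the 3 CD8a+ arrays did not overlap the 5 CD11b+ arrays, which was also so for 36% of all genes tested. An adjusted p under 0.05 with no minimum difference was reached by 36.7% of all genes. The balance of directions depended on the offset correction: without it the median over all genes was -0.19 and 299 genes were higher and 990 lower, and with arrays shifted to a common median of gene families silent in leukocytes 347 were higher and 797 lower. Without it, 929 of the 1084 genes kept their call and none was called in the opposite direction. The medians of the lists of Toll-like receptors (0.15), MHC class II (0.01), integrins (0.16), retinoid metabolism (0.07) and cell cycle (0.14) were below 0 without offset correction. After R848, 633 genes (3.48%) differed between the subsets.

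The largest excess in CD8a+ cDC was that of Gpr141b, an orphan G protein-coupled receptor gene (transcript cluster 10407982). It read 11.59, 11.44 and 10.97 in the CD8a+ arrays and 3.33 to 4.16 in the CD11b+ arrays, a difference of 7.76 ± 0.17 on the log2 scale or 216-fold (limma, Benjamini-Hochberg adjusted p = 1.01e-18). Xcr1, the receptor for the chemokine XCL1 by which CD8+ T cells and NK cells attract cDC1 (cluster 10597996), read 11.2, 11.2 and 11.1 against 3.68 to 4.22, a 153-fold difference (7.26 ± 0.12). Clec9a, a lectin that binds exposed actin on dead cells (cluster 10542181), read 11.02, 10.63 and 10.49 against 3.24 to 3.71, a 142-fold difference (7.15 ± 0.21). For all 3 genes the CD11b+ levels lay close to those of DN cDC, at 3.71, 3.72 and 3.95. DN cDC share the array set and row partners of CD11b+ cDC, so this likeness does not check the matched rows. Gpr33, an orphan chemoattractant-like receptor, differed by 5.97 ± 0.17, Tlr3, the endosomal receptor for double-stranded RNA, by 5.59 ± 0.20, and Ifi205, an interferon-inducible gene of the AIM2-like family, by 5.31 ± 0.26. P3h2, which encodes a collagen prolyl hydroxylase, differed by 5.02 ± 0.15. P2ry14, the receptor for UDP-glucose, was 4.77 ± 0.28 higher and was also high in the LysoMac (TIM-4-, then TIM-4+), at 8.51 and 8.90. Clec12a, an inhibitory lectin that recognises uric acid crystals, differed by 4.68 ± 0.18, and the tetraspanin gene Cd81 by 4.33 ± 0.23. All 10 genes were also called higher in CD8a+ cDC after R848, which the rule that named them required.

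**Figure D1:**
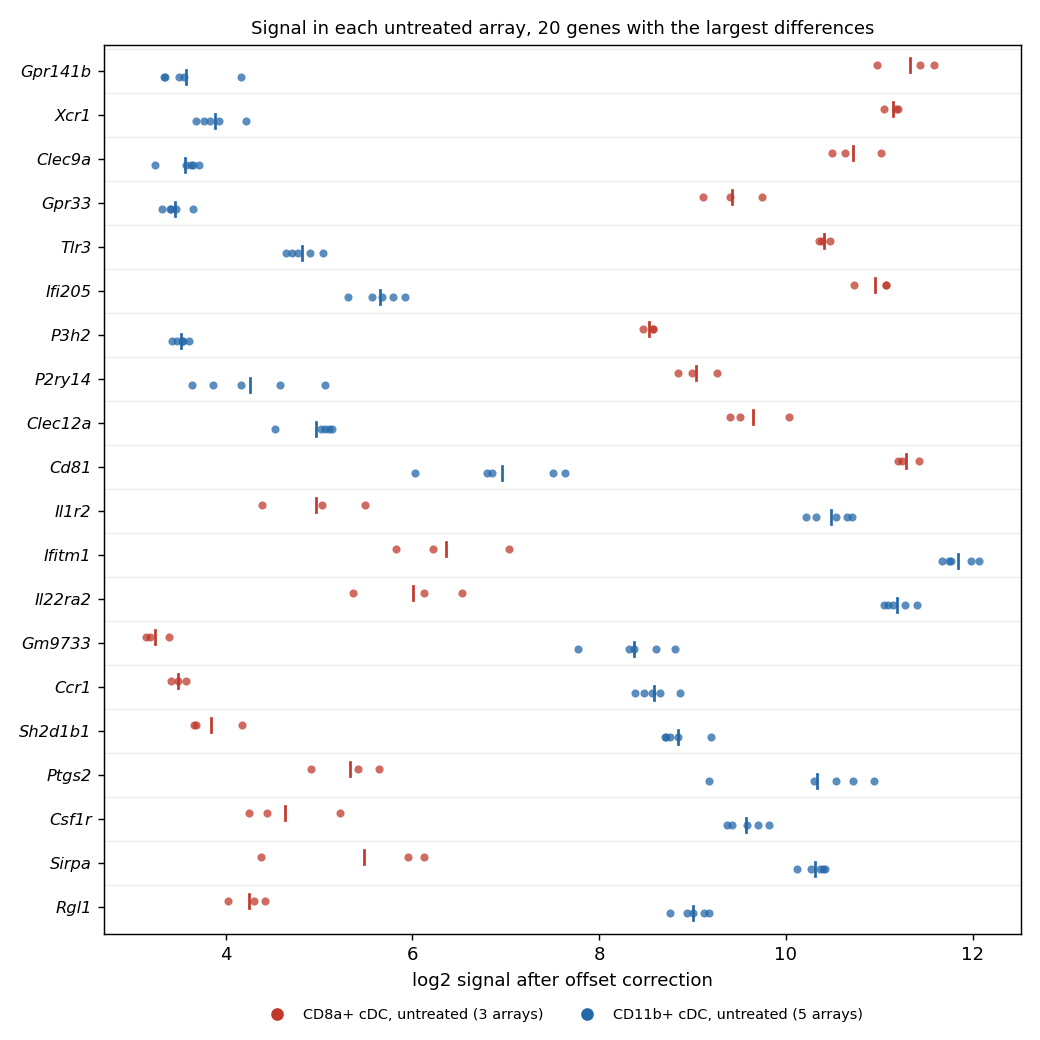
Log2 signal after offset correction (horizontal axis) of the 10 genes with the largest differences in each direction that were also called after R848, with 1 point per untreated array and a bar at each group mean. In all 20 genes the 3 CD8a+ points and the 5 CD11b+ points lie apart, which the selection of the genes also required. Gpr141b spans 3.33 to 11.6.

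In the other direction, Il1r2, the decoy receptor that captures IL-1 without signalling, read 4.39, 5.04 and 5.49 in CD8a+ cDC and 10.2 to 10.7 in CD11b+ cDC, a 45.8-fold difference (-5.52 ± 0.27). Ifitm1, an interferon-induced membrane gene of a family of close paralogs, read 6.22, 5.83 and 7.03 against 11.7 to 12.1 (-5.49 ± 0.22). Il22ra2 encodes a soluble protein that neutralises IL-22, a cytokine that acts on the epithelium. It read 5.36, 6.53 and 6.12 in CD8a+ cDC against 11.1 to 11.4 in CD11b+ cDC (-5.19 ± 0.59; limma, Benjamini-Hochberg adjusted p = 5.12e-07), and it was as high in TIM-4- LysoMac, at 12.1. Ptgs2, the inducible cyclooxygenase of prostaglandin synthesis, read 5.42, 4.92 and 5.64 against 9.17 to 10.95 (-5.01 ± 0.39), and CD11b+ replicate 4, the lowest of its group, still lay well above every CD8a+ array. Ccr1, a receptor for inflammatory CC chemokines (-5.09 ± 0.19), Csf1r, the receptor for macrophage colony-stimulating factor (-4.94 ± 0.28), Sirpa (-4.83 ± 0.30) and Rgl1, a Ral exchange factor (-4.75 ± 0.18), completed the group together with Gm9733 and the signalling adaptor gene Sh2d1b1. Sirpa was itself a sort marker. DN cDC, in the same array set as CD11b+ cDC, had CD11b+-like levels of these genes (Il1r2 10.2, Ifitm1 11.7, Ptgs2 10.3).

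Promoter windows show the sequence upstream of some of these genes and were taken from RefSeq on GRCm38.p6, as the 250 bases before the annotated start, 5′ to 3′ on the gene's strand. Of the 18184 genes, 14281 had a window. The following 7 were chosen after their values and matches were seen, to show Xcr1 and called genes whose windows hold a match. Capitals mark matches on either strand to the interferon-stimulated response element (GAAA, any 2 bases, GAAA), the ETS-IRF composite element (GGAA, any 2 bases, GAAA), the PU.1 motif (GAGGAAGT) or the AP-1 motif (TGANTCA). The first 4 genes were higher and the last 3 lower in CD8a+ cDC.
Gpr141b: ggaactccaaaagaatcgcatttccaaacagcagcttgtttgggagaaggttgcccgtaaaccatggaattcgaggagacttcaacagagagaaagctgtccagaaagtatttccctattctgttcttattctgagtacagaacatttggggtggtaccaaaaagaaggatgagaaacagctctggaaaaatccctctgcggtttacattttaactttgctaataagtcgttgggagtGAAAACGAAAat
Xcr1: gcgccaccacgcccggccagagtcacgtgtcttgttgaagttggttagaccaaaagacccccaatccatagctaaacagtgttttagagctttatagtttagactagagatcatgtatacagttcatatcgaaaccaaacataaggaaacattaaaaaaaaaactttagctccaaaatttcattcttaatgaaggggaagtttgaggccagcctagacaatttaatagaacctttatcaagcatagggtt
Gpr33: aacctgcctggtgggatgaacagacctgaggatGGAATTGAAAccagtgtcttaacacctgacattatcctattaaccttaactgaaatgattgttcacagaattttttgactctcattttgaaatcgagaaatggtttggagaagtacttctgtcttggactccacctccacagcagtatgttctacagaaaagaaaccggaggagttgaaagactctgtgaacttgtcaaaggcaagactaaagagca
Cxcr3: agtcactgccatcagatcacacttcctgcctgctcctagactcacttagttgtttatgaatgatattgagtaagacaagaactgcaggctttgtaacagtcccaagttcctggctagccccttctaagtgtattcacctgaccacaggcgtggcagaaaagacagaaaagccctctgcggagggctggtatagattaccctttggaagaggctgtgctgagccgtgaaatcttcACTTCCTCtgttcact
Cybb: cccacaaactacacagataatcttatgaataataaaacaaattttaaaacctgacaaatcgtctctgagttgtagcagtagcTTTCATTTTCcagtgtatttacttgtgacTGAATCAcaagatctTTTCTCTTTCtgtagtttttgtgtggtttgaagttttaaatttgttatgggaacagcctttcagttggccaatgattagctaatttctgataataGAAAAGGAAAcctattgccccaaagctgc
Timd4: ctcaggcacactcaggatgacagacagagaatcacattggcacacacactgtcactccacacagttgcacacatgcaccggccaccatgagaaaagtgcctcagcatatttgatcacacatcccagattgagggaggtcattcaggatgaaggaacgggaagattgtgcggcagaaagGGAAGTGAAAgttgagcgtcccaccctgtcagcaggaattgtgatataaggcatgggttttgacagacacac
Sh2d1b1: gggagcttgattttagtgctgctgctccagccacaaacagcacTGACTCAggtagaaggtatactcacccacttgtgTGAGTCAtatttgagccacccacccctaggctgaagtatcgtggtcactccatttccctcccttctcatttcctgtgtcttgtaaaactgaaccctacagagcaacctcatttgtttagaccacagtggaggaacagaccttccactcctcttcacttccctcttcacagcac
The window of Gpr141b, at chr13:19732952-19733201 on the minus strand, held an interferon-stimulated response element beginning 12 bases before the start. In Gpr33 (chr12:52028064-52028313, minus) an ETS-IRF composite began 217 bases before the start, and in Cxcr3 (chrX:101734148-101734397, minus), the receptor for interferon-induced chemokines, a PU.1 motif began 16 bases before it. Xcr1 (chr9:123862030-123862279, minus) held none of these letters in this window. Cybb (chrX:9469325-9469574, minus), the catalytic subunit of the phagocyte oxidase, held interferon-stimulated response elements beginning 168, 124 and 29 bases and an AP-1 motif beginning 139 bases before the start. Timd4 (chr11:46810549-46810798, plus) held an ETS-IRF composite beginning 72 bases before it, and Sh2d1b1 (chr1:170277068-170277317, plus) AP-1 motifs beginning 207 and 173 bases before it. Of 11 motifs searched, these 4 are given here. The others were found in 1.6% (NF-kB) to 31.0% (KLF) of all genes tested. Across all windows matches to the 4 motifs shown were rare in both directions of difference. The ETS-IRF composite was present in 1.9% of genes called higher, 3.9% of genes called lower and 2.2% of all genes tested, and the interferon-stimulated response element, which can overlap it, in 3.8%, 4.9% and 3.0%. PU.1 motifs were in 4.4%, 4.9% and 2.2%, and AP-1 motifs in 5.7%, 4.7% and 6.2%. A match describes the letters of the window and is not a site.

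Among 39 measured transcription factors of the cDC lineages, 4 were called higher and 9 lower in CD8a+ cDC, and the list had a median difference of -0.31 beside -0.01 over all genes. Irf8, the factor on which cDC1 depend, read 10.91, 10.84 and 11 in CD8a+ cDC and 7.00 to 7.99 in CD11b+ cDC, a 10.4-fold difference (3.39 ± 0.20; limma, Benjamini-Hochberg adjusted p = 1.02e-11). Bcl6, a repressor needed by CD8a+ cDC (1.92 ± 0.20), Mycl, a Myc family member that is active in cDC1 (1.53 ± 0.11), and Rbpj, the DNA-binding partner of Notch (1.15 ± 0.10), were the other 3. Rbpj was no longer called without offset correction or with the mean of all its transcript clusters. Spib, an ETS factor, read 3.91, 3.98 and 4.37 in CD8a+ cDC and 8.37 to 9.10 in CD11b+ cDC (-4.58 ± 0.21, 23.9-fold). After R848, when it was high in both subsets, its difference was 0.02 ± 0.21 and was not called. Zeb2, a repressor that favours the cDC2 fate, read 4.16 to 4.23 against 7.19 to 7.78 (-3.31 ± 0.13), and Irf4, a regulator of cDC2 function, 4.48 to 4.97 against 7.41 to 7.88 (-2.95 ± 0.17).

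The remaining factors lower in CD8a+ cDC were Bhlhe40 (-2.33 ± 0.15), Tbx21, which encodes T-bet (-2.11 ± 0.10), Runx3 (-1.82 ± 0.19), Cebpa, a myeloid factor (-1.81 ± 0.19), Klf4 (-1.58 ± 0.29) and Relb, a subunit of the non-canonical NF-kB pathway (-1.51 ± 0.11). In each of these 6 the array groups did not overlap, as in 1063 of all 1084 called genes. For Klf4 the highest CD8a+ array, at 6.86, lay close to the lowest CD11b+ array, at 7.16. Batf3, which cDC1 require, was at 8.48 in CD8a+ and 8.76 in CD11b+ cDC, a difference of -0.28 ± 0.13 that did not pass the test. Id2 (-0.10 ± 0.13) and Zbtb46, a cDC marker (0.21 ± 0.14), did not pass either, nor did Irf5 (0.22 ± 0.15). Spi1, which encodes PU.1, differed by -0.38 ± 0.10 and Etv6 by 0.66 ± 0.11, both below 2-fold. Nfil3 and Bhlhe41 had no value in both subsets. After R848, 1 factor of the list, Irf8, was called higher and 8 lower in CD8a+ cDC, beside 1.31% and 2.17% of all genes.

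**Figure D2:**
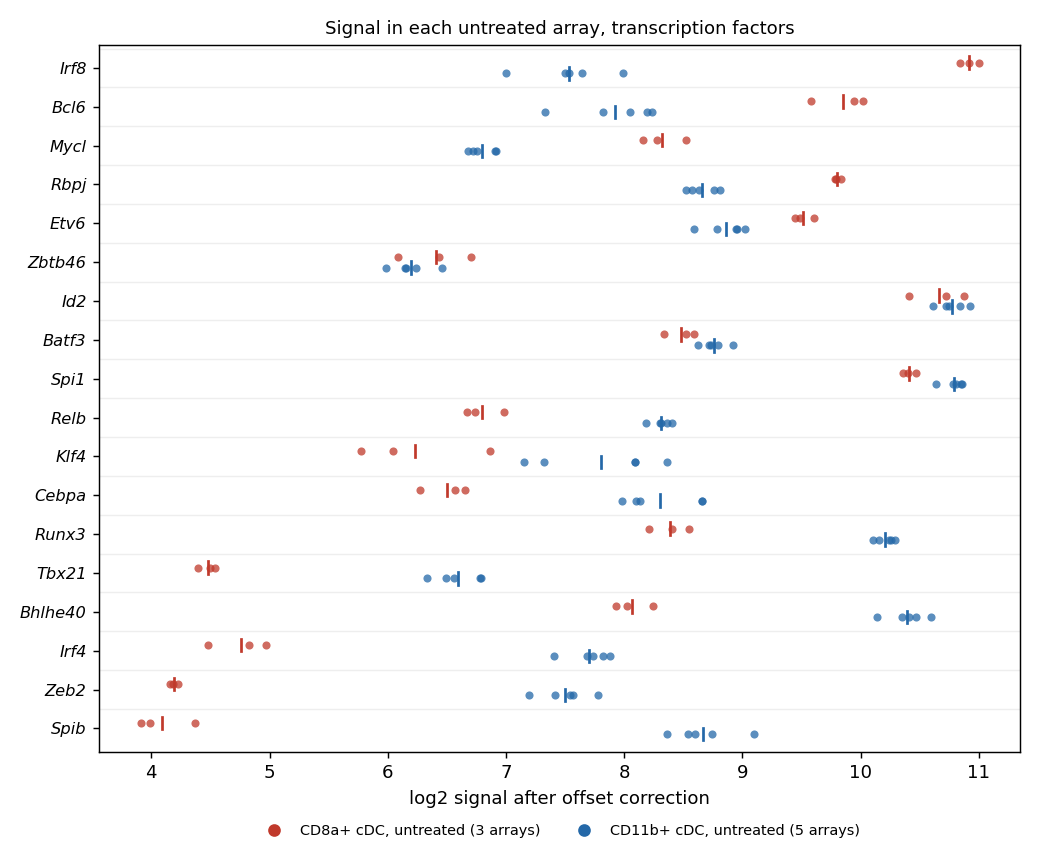
Log2 signal after offset correction (horizontal axis) of 18 transcription factor genes, with 1 point per untreated array and a bar at each group mean. Irf8 lies at 10.84 to 11 in CD8a+ cDC and 7.00 to 7.99 in CD11b+ cDC, Spib, Zeb2 and Irf4 lie the other way, the points of Zbtb46 and Id2 overlap, and those of Batf3 lie side by side.

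Of 24 measured genes on a list of cDC1 surface and functional genes, 18 were called higher and 1 lower in CD8a+ cDC (median 1.62), and of 22 on a cDC2 list, 18 were called lower and none higher (median -2.61). Both shares lie above the 5.96% of all genes. The lists were drawn from what is known of these lineages. On the cDC1 list, Cxcr3 was 4.52 ± 0.19 higher, Tlr12, a sensor of profilin, 4.33 ± 0.18, Cadm1, an adhesion molecule of cDC1, 4.26 ± 0.18, and Ppt1, a lysosomal thioesterase, 3.23 ± 0.16. Smaller differences were those of Snx22 (2.51 ± 0.26), Ly75, the endocytic receptor DEC-205 (1.82 ± 0.15), Btla, an inhibitory receptor (1.28 ± 0.17), Rab43, a cross-presentation GTPase (1.19 ± 0.09), and Itgae, which encodes CD103 (1.08 ± 0.25). Itgae was high in both subsets, at 10.9 to 11.1 against 9.69 to 10.1. Fkbp1b went against its list, at 4.84 to 5.11 in CD8a+ and 6.31 to 6.59 in CD11b+ cDC (-1.38 ± 0.20). Flt3, the receptor for the cDC growth factor (0.10 ± 0.14), Cd24a (-0.41 ± 0.20), Cd207 (0.04 ± 0.06) and Cd8b1 (-0.49 ± 0.25) were not called, and Wdfy4, needed for cross-presentation, was 0.69 ± 0.14 higher, short of 2-fold.

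On the cDC2 list, S100a4, a calcium-binding protein, read 6.77, 7.61 and 8.49 in CD8a+ cDC and 12.03 to 12.16 in CD11b+ cDC (-4.46 ± 0.28). The CD8a+ arrays were spread over more than 1 log2 unit while the CD11b+ arrays were tight. Cd7 (-3.51 ± 0.40), Cd300a (-3.22 ± 0.18), Ltb, the lymphotoxin beta subunit (-3.19 ± 0.39), and Ccr6, the receptor for the dome chemokine CCL20 (-3.08 ± 0.21), were lower in CD8a+ cDC. Cd209a, a DC-SIGN homologue, read 4.42, 4.35 and 5.53 against 6.47 to 8.08 (-2.71 ± 0.30). Mgl2 (-1.25 ± 0.25) and Fcgr3 (-1.08 ± 0.34) were the only called members of this list whose arrays overlapped between groups, and the call of Fcgr3 was lost without CD11b+ replicate 5 or CD8a+ replicate 1 or 2 (-1.4 to -0.79 over single omissions). Lyz2, whose probes may also read Lyz1, differed by -2.17 ± 0.78, and its call was lost without CD11b+ replicate 1 or 2 or any CD8a+ array (-2.24 to -2.10 over single omissions). Clec10a, Dtx1, Cd4 and Cd209d were not called.

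**Figure D3:**
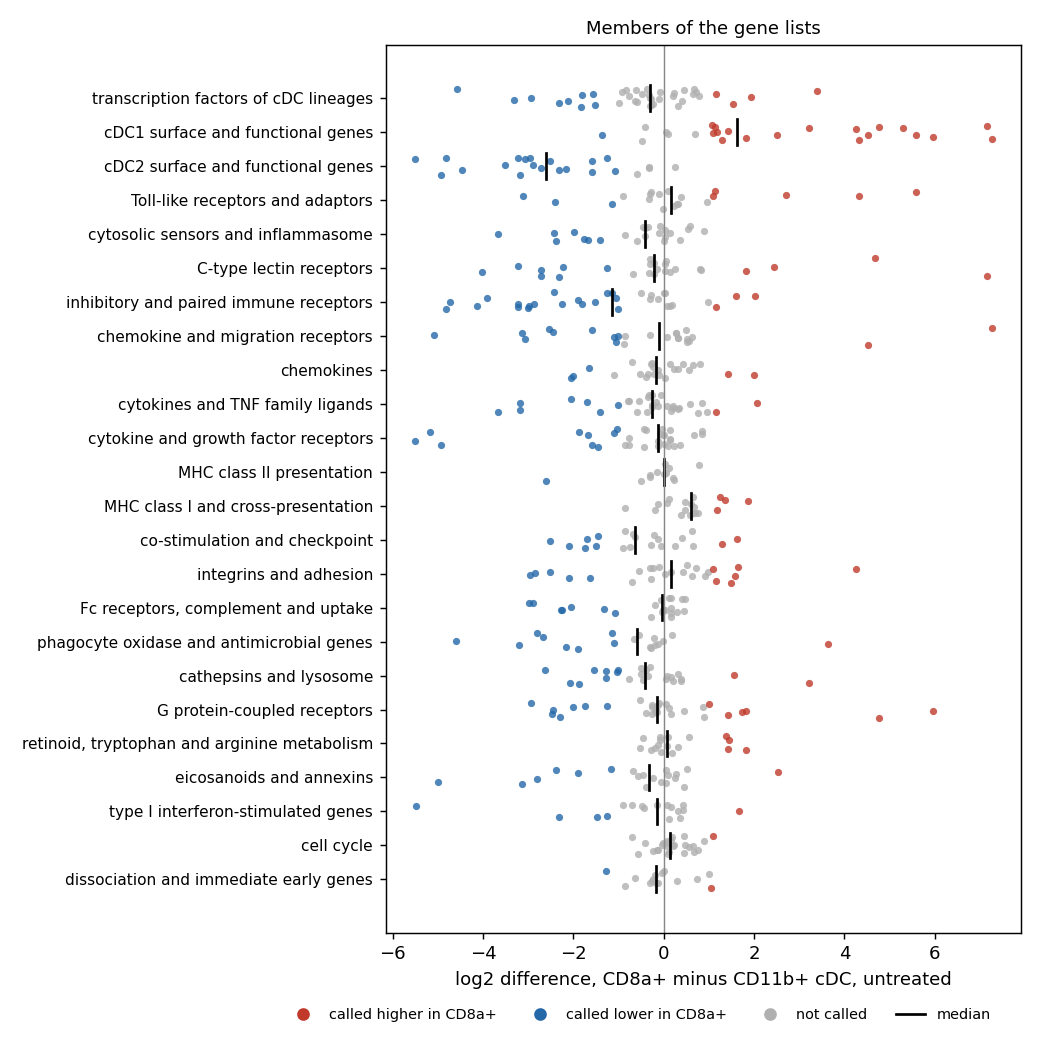
Log2 difference, CD8a+ minus CD11b+ cDC untreated (horizontal axis), of each measured member of 24 gene lists, with called members in red (higher) or blue (lower), others in grey and a bar at the list's median. The cDC1 list lies mostly to the right, with a median of 1.62, and the cDC2 list and the paired receptors mostly to the left, with medians of -2.61 and -1.16.

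Toll-like receptors differed in both directions: of 20 measured receptors and adaptors, 5 were called higher and 3 lower in CD8a+ cDC. Tlr3 read 10.4, 10.5 and 10.4 in CD8a+ cDC against 4.65 to 5.04 in CD11b+ cDC, a 48.1-fold difference, and Tlr12 9.19, 9.13 and 9.38 against 4.68 to 5.19. Cd180, a TLR4-like modulator of lipopolysaccharide responses, was 2.71 ± 0.19 higher, and the genes of the adaptor Tirap (1.14 ± 0.19) and of the TLR4 partner Ly96, or MD-2 (1.09 ± 0.40), were also called. The call of Ly96 was lost without CD11b+ replicate 1, 2 or 3, without any of the 3 CD8a+ arrays (0.92 to 1.23 over single omissions), without offset correction and with the silent gene families as reference. Tirap was not called without offset correction or without CD8a+ replicate 2 (0.99). In the other direction, Ticam2, the adaptor TRAM that couples TLR4 to TRIF, read 4.68, 5.40 and 5.24 against 8.05 to 8.49 (-3.11 ± 0.22), and Tlr1, a partner of TLR2 for lipopeptides, 5.88 to 5.94 against 8.11 to 8.53 (-2.40 ± 0.13). Irak2 differed by -1.15 ± 0.18 and lost its call without CD8a+ replicate 2 (-0.98). Leaving out that array brought the list from 8 called members to 5. Tlr13, a sensor of bacterial ribosomal RNA, was 0.95 ± 0.15 higher, just under 2-fold, and Tlr2 (-0.33 ± 0.15), Tlr4 (-0.01 ± 0.22), Tlr6 (0.22 ± 0.20), Myd88 (0.08 ± 0.17), Ticam1, which encodes TRIF (0.30 ± 0.16), and Unc93b1 (0.28 ± 0.11) did not pass the test. Tlr7, the receptor for R848, and Tlr9 had no row matched in both untreated subsets and were not compared. After R848, deposited Tlr7 signals were 4.98 in CD8a+ and 6.26 in CD11b+ cDC.

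Among 23 cytosolic sensors and inflammasome genes, none was called higher and 7 (30.4%) were called lower in CD8a+ cDC, beside 3.46% of all genes called lower (median -0.41). Nod1, a sensor of bacterial peptidoglycan, read 4.62, 5.73 and 5.13 in CD8a+ cDC and 8.35 to 9.16 in CD11b+ cDC (-3.67 ± 0.25, 12.8-fold). Nlrp3, which seeds the inflammasome in response to cell damage, read 5.16 to 5.34 against 7.30 to 8.16 (-2.43 ± 0.18). Naip2, which recognises bacterial secretion systems and belongs to a paralogous cluster, differed by -2.38 ± 0.14, and its partner Nlrc4 by -1.67 ± 0.18. Ddx58, which encodes the RNA sensor RIG-I, differed by -1.98 ± 0.15, and the inflammatory caspases Casp1 and Casp4 by -1.77 ± 0.11 and -1.40 ± 0.20. In all 7 genes the arrays of the subsets lay apart, as they did in 1063 of all 1084 called genes. After R848, 3 members were called lower in CD8a+ cDC and none higher, beside 2.17% and 1.31% of all genes.

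C-type lectins split between the subsets, with 4 of 25 measured called higher and 7 lower in CD8a+ cDC. Clec9a, Clec12a, Clec1a (2.43 ± 0.17) and Ly75 were higher. Klrd1, which encodes the NK receptor CD94, read 6.67, 6.25 and 6.15 in CD8a+ cDC and 10.3 to 10.5 in CD11b+ cDC (-4.02 ± 0.24). It was at 10.9 in DN cDC but at 5.03 and 4.38 in the LysoMac (TIM-4-, then TIM-4+). Clec5a, an activating receptor that signals through DAP12 (-3.22 ± 0.19), Cd69 (-2.72 ± 0.32), Cd209a, Clec7a, the beta-glucan receptor Dectin-1 (-2.32 ± 0.20), and Cd302 (-2.23 ± 0.23) were lower. Clec4a1, Clec4a2, Clec4a3 and Clec4a4 had no value in both subsets.

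The list of inhibitory and paired immune receptors had 18 of 31 measured members called lower and 3 called higher in CD8a+ cDC. Its median was -1.16, and of all genes 3.46% were called lower and 2.5% higher. Pilra, an inhibitory receptor for sialylated proteins, read 4.41, 4.59 and 5.80 in CD8a+ cDC and 9.43 to 9.89 in CD11b+ cDC (-4.74 ± 0.33). Its activating relatives Pilrb2 (-4.14 ± 0.26) and Pilrb1 (-2.98 ± 0.30) went the same way, but the 3 genes are paralogs whose probes may share transcripts. Siglece, a sialic acid-binding inhibitory receptor, read 4.19 to 5.41 against 8.48 to 9.00 (-3.92 ± 0.27), and Lair1, a collagen receptor, 5.49 to 5.77 against 8.36 to 8.77 (-3.00 ± 0.19). Trem1, an amplifier of inflammation (-3.23 ± 0.23), Lilrb4a (-2.88 ± 0.32), Siglecg (-2.25 ± 0.19) and 4 CD300 family members, Cd300ld (-2.43 ± 0.21), Cd300lf (-1.82 ± 0.35), Cd300c2 (-1.02 ± 0.17) and Cd300a, were also lower. The call of Cd300c2 was lost without CD11b+ replicate 4 or 5 or CD8a+ replicate 3 (-1.10 to -0.95 over single omissions). The adaptors that activating receptors need, Fcer1g (-2.90 ± 0.17), Tyrobp, which encodes DAP12 (-1.27 ± 0.09), and Hcst, which encodes DAP10 (-1.16 ± 0.26), were lower with them. The members called higher in CD8a+ cDC were Treml4 (2.02 ± 0.21), Cd33 (1.60 ± 0.13) and Slamf8 (1.17 ± 0.24). Slamf8 was not called without offset correction. After R848, 18 members were again called lower, and none higher, beside 2.17% and 1.31% of all genes.

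For migration receptors, 2 of 24 measured were called higher, Xcr1 and Cxcr3, and 9 lower in CD8a+ cDC. Ccr1 read 3.41 to 3.58 in CD8a+ cDC and 8.39 to 8.86 in CD11b+ cDC. Ccr6 read 4.17, 4.58 and 5.14 against 7.35 to 8.20, and its level of 8.26 in DN cDC was close to that of CD11b+ cDC. Cxcr4, the receptor for CXCL12, read 8.46 to 8.74 against 11 to 11.30 (-2.54 ± 0.12), and Gpr183, the oxysterol receptor EBI2 that positions cDC2 in lymphoid tissue, 7.12 to 7.53 against 9.57 to 9.83 (-2.45 ± 0.13). The scavenging receptor Ccrl2 (-3.14 ± 0.24), the fractalkine receptor Cx3cr1 (-1.59 ± 0.22) and the egress receptor S1pr1 (-1.10 ± 0.24) were lower as well. Ccr7, which guides mature cDC to T cell zones, read 8.55, 9.44 and 9.55 in CD8a+ cDC against 9.57 to 10.6 in CD11b+ cDC, a difference of -1.06 ± 0.31 whose nearest arrays almost met. Its call was lost without CD11b+ replicate 3 or CD8a+ replicate 1 (-1.24 to -0.74 over single omissions), and that of S1pr1 without CD11b+ replicate 3 (-0.99). Cxcr2 was just past 2-fold (-1.01 ± 0.14) and lost its call under 6 other settings (common median, quantile normalisation, only the 8 untreated arrays, treat, array weights and replicate block) and without CD11b+ replicate 1 (-0.97) or 5 (-0.99) or CD8a+ replicate 2 (-0.92). Ccr9, the receptor for the gut chemokine CCL25, was at 8.33 in CD8a+ and 9.18 in CD11b+ cDC, short of 2-fold (-0.85 ± 0.12).

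Of 24 measured chemokine genes, 2 were called higher and 3 lower, a share of 20.8% beside 5.96% of all genes. Cxcl10, a ligand of CXCR3, read 7.72, 7.66 and 8.32 in CD8a+ cDC and 5.24 to 6.69 in CD11b+ cDC (1.99 ± 0.33), and Ccl17, a ligand of CCR4, 10.6, 10.9 and 11.3 against 9.15 to 9.85 (1.42 ± 0.25). Ccl3 (-2.05 ± 0.47), Cxcl2 (-2.0 ± 0.68) and Ccl5 (-1.65 ± 0.38), all inflammatory chemokines, were lower in CD8a+ cDC. The Cxcl2 values of CD11b+ cDC ran from 4.62 to 9.19 and overlapped those of CD8a+ cDC, 5.52 to 5.72, and its call was lost without CD11b+ replicate 1 (-1.62), 2 (-1.84) or 3 (-1.65) or without CD8a+ replicate 1 (-2.03), 2 (-2.03) or 3 (-1.93). Ccl19, Ccl4 and Cxcl16 were not called, and Ccl22 had no value in both subsets.

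Among 32 measured cytokine and TNF family genes, 2 were called higher and 7 lower in CD8a+ cDC. Il15, which sustains CD8+ T cells and NK cells, read 5.78, 5.29 and 5.69 in CD8a+ cDC and 3.18 to 4.36 in CD11b+ cDC (2.05 ± 0.28). Tnf was 1.15 ± 0.23 higher, its CD11b+ values reaching 8.36 and its CD8a+ values starting at 8.38, and it was not called without offset correction. Il1rn, the antagonist of IL-1, read 5.74 to 6.01 against 9.42 to 9.63 (-3.68 ± 0.15), and Il1b 9.04 to 9.10 against 10.8 to 11.3 (-2.06 ± 0.24). Genes of IL-1 and of both of its natural blockers, Il1rn and Il1r2, were thus lower in CD8a+ cDC. Il6 read 3.21 to 3.26 in CD8a+ cDC against 5.66 to 7.53 in CD11b+ cDC (-3.18 ± 0.30). Ltb, Tnfsf9, which encodes 4-1BB ligand (-1.70 ± 0.30), Vegfa (-1.40 ± 0.23) and Il18 (-1.0 ± 0.17) were the other members called lower. The call of Il18 was lost without CD11b+ replicate 3 or 4 or CD8a+ replicate 3 (-1.07 to -0.89 over single omissions). Il12b, the shared IL-12 and IL-23 subunit, was at 8.06 in CD8a+ and 7.23 in CD11b+ cDC but did not pass the test (0.84 ± 0.39; limma, Benjamini-Hochberg adjusted p = 0.0988). Il12a (0.20 ± 0.10), Il23a (-0.18 ± 0.12) and Il27 (-0.25 ± 0.12) did not pass either.

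Cytokine and growth factor receptors had 9 of 31 measured members called lower and none higher in CD8a+ cDC. After Il1r2, Il22ra2 and Csf1r came Il21r (-1.89 ± 0.15), Tnfrsf1b, a TNF receptor (-1.67 ± 0.12), Csf3r, the receptor for granulocyte colony-stimulating factor (-1.58 ± 0.16), and Il17ra (-1.45 ± 0.24). Csf2rb, the signalling chain for GM-CSF (-1.10 ± 0.12), and Crlf2, the receptor for thymic stromal lymphopoietin (-1.03 ± 0.13), were near the 2-fold limit. The call of Crlf2 was lost without CD11b+ replicate 4 or 5 or CD8a+ replicate 1 or 2 (-1.12 to -0.99 over single omissions). Il1r2, Il22ra2 and Csf1r differed by 30.7-fold or more, and the other 6 called receptors by 3.70-fold or less.

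Of 12 measured genes of MHC class II presentation, 1 was called (8.3%, beside 5.96% of all genes). All 12 had a mean log2 signal of at least 6, and 11.4% of genes at such signals were called. The called member was H2-Eb2, a second beta chain gene of the H2-E locus, at 5.68 to 5.84 in CD8a+ and 8.13 to 8.59 in CD11b+ cDC (-2.62 ± 0.18). H2-Aa (0.13 ± 0.18), H2-Eb1 (0.00 ± 0.13), the invariant chain gene Cd74 (-0.15 ± 0.19) and Ciita, the class II transactivator (0.02 ± 0.11), were not called. The list's median of 0.01 turned sign under 3 of the 4 other offset settings. For MHC class I and cross-presentation, 4 of 19 measured were called higher and none lower, with a median of 0.59. These were Cd1d1, which presents lipids to NKT cells (1.87 ± 0.23), the peptide transporter genes Tap2 (1.35 ± 0.12) and Tap1 (1.24 ± 0.11), and Rab43. Without offset correction Tap1 and Rab43 were no longer called, 1 member was called lower and the median was 0.29. B2m differed by 0.12 ± 0.09 and was not called.

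Co-stimulatory and checkpoint genes had 2 of 21 measured members called higher and 6 lower. Cd86, a CD28 ligand, read 10.7, 10.7 and 10.7 in CD8a+ cDC and 8.92 to 9.27 in CD11b+ cDC (1.63 ± 0.17), while Cd80, its relative (-0.68 ± 0.16), and Cd40 (-0.64 ± 0.13) were lower by less than 2-fold. Cd274 and Pdcd1lg2, which encode the PD-1 ligands, read 7.48 to 7.94 against 8.93 to 9.47 (-1.49 ± 0.13) and 6.12 to 6.66 against 7.53 to 7.99 (-1.46 ± 0.16). Socs2 (-2.51 ± 0.29), Slamf1 (-2.09 ± 0.29), Lgals9, which encodes galectin-9 (-1.75 ± 0.24), and Tnfsf9 were lower as well. Ligands of CD28 and of PD-1 were thus distributed unequally between the subsets.

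Integrin and adhesion genes differed in both directions, with 6 of 25 measured called higher and 5 lower (median 0.16). Besides Cadm1 and Itgae, CD8a+ cDC had higher Itga1 (1.64 ± 0.17), Itgav (1.59 ± 0.09), Itgal, the alpha chain of LFA-1 (6.15 to 6.30 against 4.57 to 4.89), and Itgb1 (1.16 ± 0.13). Itgae and Itgb1 were not called without offset correction. Itgav read 8.34 in all 3 CD8a+ arrays and 6.65 to 6.86 in CD11b+ cDC. Besides Itgam, the tight junction gene F11r (-2.86 ± 0.23), Epcam (-2.51 ± 0.20), Cdh1, which encodes E-cadherin (-2.11 ± 0.25), and Pecam1 (-1.64 ± 0.18) were lower. Epcam read 5.09 to 5.66 in CD8a+ cDC and 7.76 to 7.99 in CD11b+ cDC.

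Of 18 measured oxidase and antimicrobial genes, 8 were called lower in CD8a+ cDC and 1 higher (median -0.59), and of 22 Fc receptor, complement and uptake genes, 7 were called lower and none higher (median -0.03). Cybb read 5.73, 5.29 and 6.17 in CD8a+ cDC against 9.96 to 10.5 in CD11b+ cDC (-4.59 ± 0.31, 24.1-fold), while its cytosolic partners Ncf1 (-1.15 ± 0.11) and Ncf4 (-1.10 ± 0.22) differed by little over 2-fold. Cst7, a cystatin (-3.20 ± 0.45), Pglyrp1, a peptidoglycan-binding protein (-2.80 ± 0.20), Lyz1 (-2.68 ± 0.66) and Acod1, which makes itaconate (-1.90 ± 0.39), were lower too. Pglyrp1 was at 10.3 to 11.1 in CD11b+ cDC but at 5.30 and 5.00 in the LysoMac (TIM-4-, then TIM-4+), whereas Lyz1 and Cst7 were highest in the LysoMac, at 13.2 and 12.2 in TIM-4+ cells. Mpeg1, which encodes the pore-forming perforin-2, was the member higher in CD8a+ cDC, at 11.1, 11.2 and 10.9 against 7.36 to 7.59 (3.64 ± 0.12, 12.5-fold). Timd4, a phosphatidylserine receptor, read 4.57 to 4.68 against 6.92 to 8.57 (-2.99 ± 0.30), and the complement genes C1qb (-2.27 ± 0.38), C1qa (-2.25 ± 0.45) and C1qc (-2.06 ± 0.55) were lower with it. Their summed marker list is given with the macrophage markers below.

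Of 24 measured cathepsin and lysosome genes, 2 were called higher, Ppt1 and Psap, a saposin precursor (1.55 ± 0.14), and 8 lower. Lgmn, the endopeptidase that helps to process the invariant chain, read 5.21 to 5.31 in CD8a+ cDC and 7.66 to 8.22 in CD11b+ cDC (-2.63 ± 0.20). Ctsd (-2.07 ± 0.31), the tetraspanin gene Cd63 (-1.88 ± 0.20), Ctsz (-1.54 ± 0.09), Tpp1 (-1.29 ± 0.14), Ctsc (-1.28 ± 0.10), Lamp1 (-1.03 ± 0.07) and Tfeb, a regulator of lysosomal genes (-1.01 ± 0.11), were lower. Lamp1 lost its call without CD8a+ replicate 1 (-0.95), and Tfeb without CD11b+ replicate 2, 4 or 5 or CD8a+ replicate 1 or 2 (-1.07 to -0.97 over single omissions) and under 5 other settings. Without CD8a+ replicate 1 the list had 6 members called lower. Ppt1 moved against these, at 11.9 to 12.1 in CD8a+ cDC and 8.54 to 8.99 in CD11b+ cDC.

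Among 29 measured G protein-coupled receptors, 6 were called higher and 7 lower. The paralogs Gpr141b and Gpr141 lay in opposite directions, Gpr141 reading 4.53 to 5.32 in CD8a+ cDC and 7.69 to 8.05 in CD11b+ cDC (-2.93 ± 0.21). After R848, where no rows had to be matched, Gpr141b differed by 4.56 ± 0.17 and Gpr141 by -2.07 ± 0.21. Besides Gpr33 and P2ry14, Lpar6 (1.83 ± 0.23), the proton sensor Gpr65 (1.74 ± 0.12), P2ry6 (1.43 ± 0.24) and the ATP-gated channel gene P2rx7, which the list also held (1.00 ± 0.15), were called higher. P2rx7 was at the 2-fold limit, and its call was lost without CD11b+ replicate 1, 4 or 5 or CD8a+ replicate 1 (0.91 to 1.14 over single omissions) and under 5 other settings, no offset correction among them. The ADP receptor P2ry13 (-2.48 ± 0.22), Adgre4 (-2.46 ± 0.15), Ffar2, the receptor for short-chain fatty acids (-2.29 ± 0.15), Gpr35 (-2.01 ± 0.16), Adgre1, which encodes F4/80 (-1.74 ± 0.18), and Hcar2, the niacin receptor (-1.25 ± 0.22), were lower. Ffar2 read 6.59 to 7.10 in CD8a+ cDC and 9.06 to 9.30 in CD11b+ cDC.

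In retinoid, tryptophan and arginine metabolism, 4 of 17 measured genes were called higher and none lower in CD8a+ cDC, and all 4 belong to retinoid metabolism. Aldh1a2, which makes the retinoic acid that imprints gut homing on lymphocytes, read 7.90, 8.18 and 8.10 in CD8a+ cDC and 6.33 to 7.35 in CD11b+ cDC (1.37 ± 0.18). Cyp26b1, which degrades retinoic acid (1.83 ± 0.12), Aldh1a3 (1.45 ± 0.15) and Dhrs9 (1.42 ± 0.14) were higher too, at lower signals. Genes of synthesis and of breakdown thus stood higher in the same subset. Aldh1a1 and Ido1 had signals of 3.78 to 3.89 in both subsets and were not called. In eicosanoid and annexin genes, 6 of 20 were called lower and 1 higher. Pla2g7, a phospholipase that inactivates platelet-activating factor (-3.15 ± 0.29), Anxa3 (-2.80 ± 0.14), Anxa2 (-2.40 ± 0.11), Lta4h, which makes leukotriene B4 (-1.89 ± 0.12), and Pla2g4a (-1.17 ± 0.14) were lower with Ptgs2. Tbxas1, thromboxane synthase, read 7.63, 7.02 and 7.58 in CD8a+ cDC against 4.81 to 5.06 in CD11b+ cDC (2.52 ± 0.12).

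Interferon-stimulated genes did not differ in a single direction: 1 of 17 measured was called higher and 4 lower. Irf7 read 6.43 to 6.90 in CD8a+ cDC against 4.71 to 5.20 in CD11b+ cDC (1.66 ± 0.15). Ifitm1, Ifitm6 (-2.31 ± 0.37) and Ifitm2 (-1.47 ± 0.13), which are close paralogs, and Oas1a (-1.27 ± 0.20) were lower, while Mx1 (0.43 ± 0.17), Usp18 (-0.89 ± 0.16) and Oas2 (-0.15 ± 0.18) were not called. Isg15, Ifit1, Ifit2 and Ifit3 were among 12 members of the list without a value in both subsets. In the cell cycle list 1 of 26 (3.8%, beside 5.96% of all genes) was called, Kif11, a mitotic motor (1.09 ± 0.28). Its call was lost without CD11b+ replicate 2 (0.97) or 3 (0.99), without offset correction and with the silent gene families as reference. Mki67 (0.64 ± 0.28) and Top2a (0.66 ± 0.22) were not called. Of 15 genes that respond to tissue dissociation, Ier3 was called higher (1.04 ± 0.21) and Junb lower (-1.29 ± 0.18). The call of Ier3 was lost without CD11b+ replicate 2 (0.92) or 5 (0.98) and under the same 2 offset settings as that of Kif11, and Fos (0.73 ± 0.30), Egr1 (0.29 ± 0.18) and Jun (-0.86 ± 0.16) were not called.

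Markers of other cell types were read from lists. A majority of members was called lower in CD8a+ cDC for the macrophage and T cell lists, and fewer in each of the other 8. In bulk RNA, fewer cells of a type and less RNA per cell cannot be told apart. Of 11 measured macrophage markers, 8 were called lower, and the mean log2 signal of the list was 5.35 to 5.69 in CD8a+ cDC, 6.84 to 7.44 in CD11b+ cDC, 9.74 to 9.93 in TIM-4- LysoMac and 10.3 to 10.4 in TIM-4+ LysoMac. Of its defining members, Cx3cr1 was at 6.21 to 6.83 in CD11b+ cDC against 10.7 and 10.9 in the LysoMac, and C1qa at 6.41 to 7.94 against 12.1 in both. Mertk and Fcgr1 read 3.47 and 4.20 in CD11b+ cDC and were not called, nor was Cd68 (0.07 ± 0.15). The phagocyte, complement and lysosomal genes called lower above were lower along with this list, of which the C1q genes and others are members. The part of the list in their differences was not tested.

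Of 5 measured T cell markers, 4 were called lower in CD8a+ cDC, Thy1 (-3.09 ± 0.32), Cd3g (-1.86 ± 0.55), Lat (-1.11 ± 0.17) and Cd3e (-1.10 ± 0.18), and the list read 4.45 to 4.54 in CD8a+ and 5.50 to 6.24 in CD11b+ cDC. The call of Lat was lost without CD11b+ replicate 3 (-0.94) and that of Cd3e without CD11b+ replicate 4 (-0.99). NK cell and innate lymphoid markers read 3.74 to 4.07 against 4.33 to 5.25, with Gzma (-2.83 ± 0.65) and Nkg7 (-2.0 ± 0.39) called lower of 6 measured. B cell markers read 4.31 to 4.87 against 5.11 to 5.56, and Cd79a alone of 6 was called (-3.30 ± 0.34), while Ms4a1, which encodes CD20, was not (0.11 ± 0.27). Plasma cell markers read 5.25 to 5.89 against 5.64 to 6.47, with Mzb1 called (-1.20 ± 0.45). Its call was lost without CD11b+ replicate 1 (-1.20), 4 (-0.97) or 5 (-1.14) or CD8a+ replicate 1 (-1.13) or 3 (-0.88), and Jchain at 5.93 against 7.45 not called (-1.52 ± 0.64). Cd7, Ltb, Klrd1, Tbx21 and Ccl5, which lymphocytes also express, were lower in CD8a+ cDC along with these lists, and the part of the lists in those differences was not tested. DN cDC, in which the T cell list read 6.30 to 6.63, had Cd7, Ltb and Klrd1 at 10.4, 10.4 and 10.9. In TIM-4- LysoMac the T cell list read 5.12 to 5.68. Of these genes, Klrd1 alone is given for them, above, and the part of other cells in these levels was not tested either.

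Plasmacytoid DC markers read 6.25 to 6.32 against 7.02 to 7.20, with Lair1 alone of 7 called and the defining Siglech at 4.78 and 4.76 and not called. Neutrophil markers read 3.82 to 3.92 against 4.29 to 4.51, with Csf3r and Cxcr2 called of 7. Of 14 epithelial markers, which read 4.37 to 5.08 against 4.72 to 6.33, Gp2, a receptor of M cells (-2.78 ± 0.21), Epcam and Cdh1 were called, while the keratin genes Krt8, Krt18, Krt19 and Krt20 were not. Pecam1 was the single call among 10 stromal and endothelial markers, and none of 7 mast cell and basophil markers was called.

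**Figure D4:**
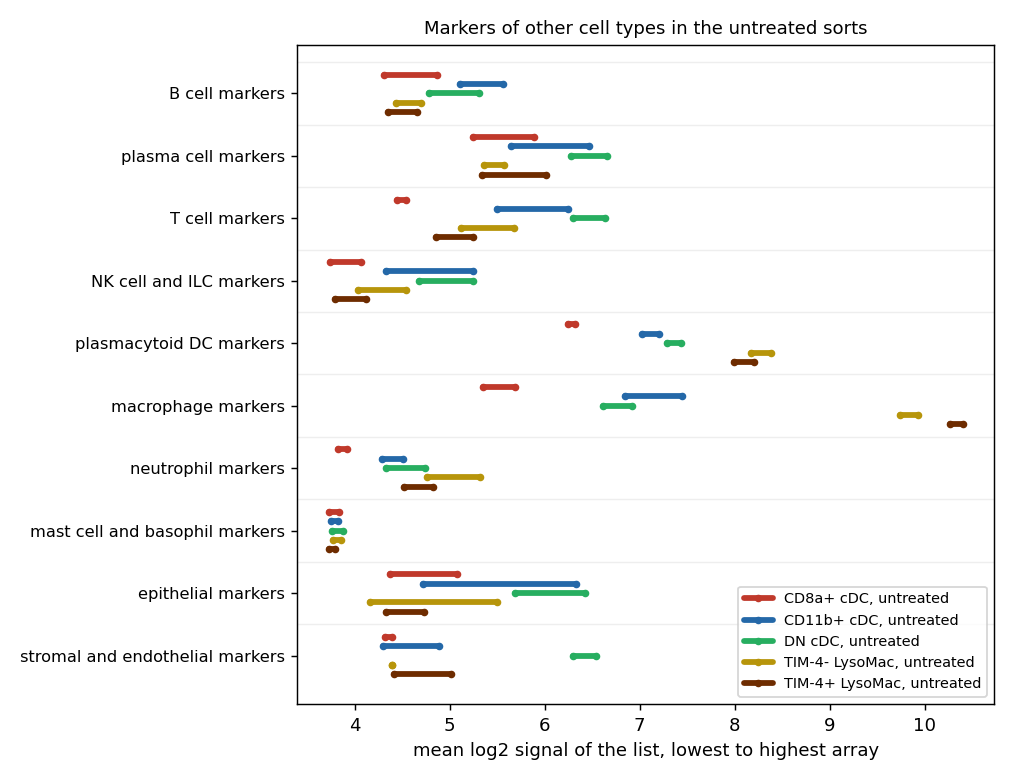
Range over arrays of the mean log2 signal (horizontal axis) of 10 lists of markers of other cell types in the 5 untreated sorts; each bar runs from the lowest to the highest array. CD8a+ cDC lie below CD11b+ cDC for T cell markers (4.45 to 4.54 against 5.50 to 6.24) and for macrophage markers (5.35 to 5.69 against 6.84 to 7.44), and the LysoMac lie far above both for macrophage markers.

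The subset differences were set beside those 9 h after R848. Of the 1084 genes called in untreated cells, 303 were called in the same direction after R848, which is 28.0% of the untreated calls and 47.9% of the 633 R848 calls, 15 were called in the opposite direction and 766 were not called after R848. The sign was the same in 836 of the 1084, and the share over all genes was not counted. Across all 18184 genes, which are not independent replicates, both differences correlated at 0.445. These contrasts share no samples, but the untreated rows were matched by their likeness to the R848 arrays, so that they are not independent, and the part of the matching in these counts was not tested. Clec9a (7.15 untreated, 5.37 ± 0.21 after R848), Clec12a (4.68, 5.23 ± 0.18), Xcr1 (7.26, 4.75 ± 0.12) and Rgl1 (-4.75, -3.88 ± 0.18) kept differences over 10-fold. Tlr3, at 10.4 in untreated CD8a+ cDC, was at 6.50 after R848, and its difference was then 1.36 ± 0.20. Cxcr3 differed by -0.14 ± 0.19, Itgam by 0.05 ± 0.19, Cd86 by -0.07 ± 0.17 and Spib by 0.02 ± 0.21 after R848, and none of these 4 was called there. Cd274 and Pdcd1lg2, lower in untreated CD8a+ cDC, differed by 0.43 ± 0.13 and 0.94 ± 0.16 after R848.

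**Figure D5:**
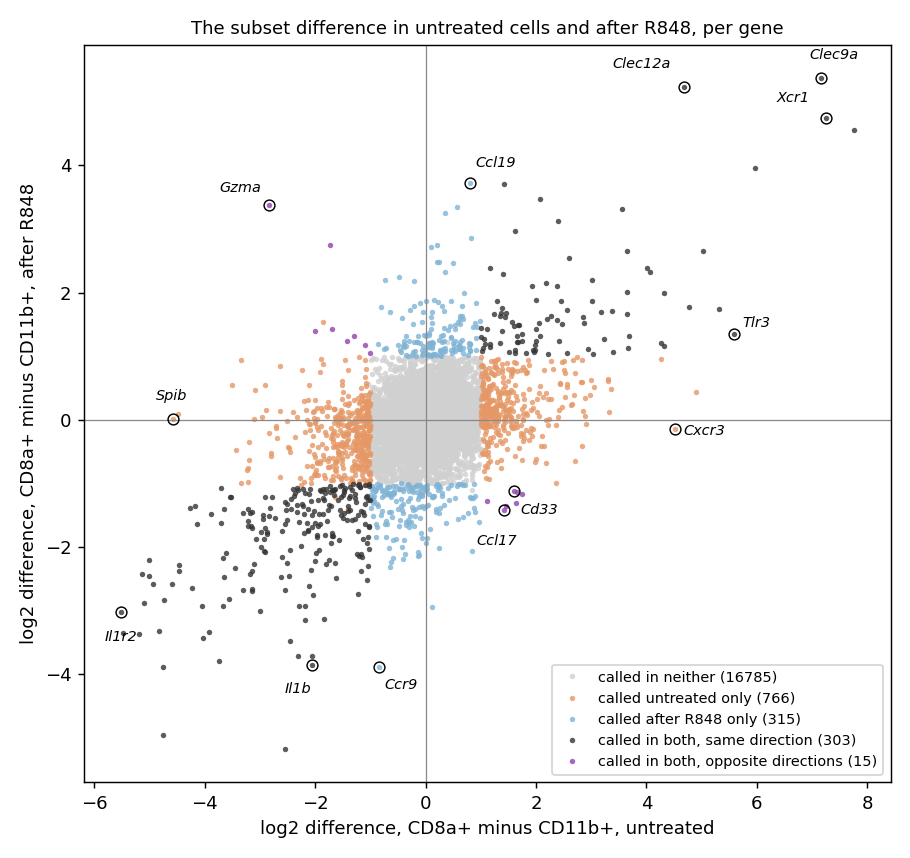
Log2 difference, CD8a+ minus CD11b+ cDC, in untreated cells (horizontal axis) and after R848 (vertical axis), with 1 point per gene and colour by the contrast in which the gene was called. The 303 genes called in both in the same direction lie along the rising diagonal, 766 were called in untreated cells alone and 15 in opposite directions, Gzma farthest.

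The 15 genes called in opposite directions were Arc, Ccl17, Cd33, Cd37, Dnajc15, Gzma, Klhl6, Mt1, Mt2, Nkg7, Prkar2b, Ramp3, Scimp, Tnfsf9 and Tram2. The following 5 are among the named genes. Since they were chosen for their opposite calls, the change in their subset difference is a description, with no test. Ccl17 stood at 10.9 in untreated CD8a+ and 9.53 in untreated CD11b+ cDC and at 7.98 and 9.39 after R848, so that its subset difference went from 1.42 to -1.41 (a change of 2.83 ± 0.36, untreated minus R848). Tnfsf9 went from -1.70 to 1.43 (-3.13 ± 0.43) and Cd33 from 1.60 to -1.12 (2.73 ± 0.18). Gzma and Nkg7, markers of cytotoxic lymphocytes, went from -2.83 to 3.38 and from -2.0 to 1.4. The NK cell list, which holds both genes, read 4.34 to 4.87 in CD8a+ and 3.72 to 3.92 in CD11b+ cDC after R848. Gzma and Nkg7 were the 2 of its 6 measured members called higher there, and the list's median difference was -0.02. The part of NK cell transcripts in these values was not tested. Each of these changes spans array sets, since the untreated and R848 arrays were deposited in different sets.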

How the data were processed

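The data were 25 Affymetrix Mouse Gene 1.0 ST arrays in 3 array sets. The deposited values are log2 signals made by the authors with RMA in Affymetrix Expression Console 1.4.1, per the submitters' processing notes; the annotation's genome build is not given in the sources used here. Row identifiers fit only the set of R848 arrays. The rows of each untreated set were therefore aligned in order to the R848 arrays of the same subset with a pair hidden Markov model (Student t with 3 degrees of freedom, a wide normal component of SD 2 and share 0.05, gap opening 0.01, extension 0.6, band of 400 rows), and row partners with a posterior of at least 0.9 were kept. These settings were chosen after recovery on simulated data and the posteriors of some genes had been seen. Of 28939 rows aligned, 26305 (90.9%) were accepted in the CD11b+ set and 26646 (92.1%) in the CD8a+ set. Rows that were not accepted were left out, so that 575 of 666 listed genes on the array were measured.

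The offset between sets was removed by cyclic loess over all arrays, and 7 groups were fitted with limma 3.58.1 in R 4.3.3, with Benjamini-Hochberg adjustment over 18184 genes. Calls needed an adjusted p under 0.05 and a 2-fold difference, and errors are standard errors of the fit. The number of arrays, 3 and 5, limits the precision; the median standard error was 0.12. Alignment used Python 3.11.15, and the alignment and the fit were tested on simulated data. Named genes were the 10 largest differences in each direction with arrays apart and called alike after R848, up to 4 called members per list and direction, the sort genes and members called against their list. Further list members are named in the text beyond that rule, after their values were seen. The members and lists were chosen with earlier results of these data known. Alternatives changed the offset correction, the acceptance of rows, the arrays fitted, the call rule, the signal minimum, the handling of several clusters per gene, array weights and a replicate block, and left out each array in turn; the stricter acceptance of rows was added after seeing the data.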

Additional observations from a re-analysis of the deposited data

Results flagged for a closer look

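In the 5 untreated CD11b+ arrays, 1 array stood apart from the other 4 by Dixon's test for 10 of the 140 named genes, and chance gives about 1 in 20. Replicate 3 was the low array for Clec12a (4.53), Cybb (9.96) and Naip2 (7.63) and the high array for Fkbp1b (6.59), Gpr141b (4.16), Il15 (4.36) and Lat (6.18). Replicate 4 was low for Cadm1 (4.77) and high for Cd3e (6.65), and replicate 2 was low for Anxa2 (9.24). Of these 10, Lat and Cd3e lost their calls without the array concerned.

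For 5 named genes the subset difference was called in opposite directions in untreated cells and 9 h after R848. The genes were chosen for those calls, so the sizes are a description and the difference between the contrasts was not tested independently. The untreated minus R848 change was 2.83 for Ccl17, 2.73 for Cd33, -6.22 for Gzma, -3.39 for Nkg7 and -3.13 for Tnfsf9, and it spans array sets.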

How the results depend on the processing

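The count of 1084 genes called between untreated subsets was 6678 with no minimum difference, 453 when limma's treat tested against a 2-fold difference and 706 of 6203 genes with a mean log2 signal of at least 6. After R848 the count of 633 became 2434 with no minimum difference and 169 with treat. Under the other settings the untreated count ran from 916 with stricter acceptance of rows, which tested 16040 genes, to 1289 with no offset correction, and leaving out each array in turn gave 1061 to 1123. No called gene was called in the opposite direction under any setting that tested it. The difference of 1 called gene changed sign, without a call, with looser acceptance of rows. The same held for 1 where a direct match of both untreated sets had to agree. With rows matched to the R848 arrays of the other subset, 17984 genes were tested, among them 978 of the 1084 called and 119 of the 140 named. Where a direct match of both untreated sets had to agree, 17636 of 18184 genes were tested, but 956 of the 1084 called and 110 of the 140 named. Called genes were thus dropped there more often than genes at large, and the dropped ones stayed unchecked. That setting tested 19 C-type lectins, with 1 called higher in place of 4. It tested 19 cDC1 genes, with 13 called higher in place of 18. Of the 140 named genes, 8 lost their call without offset correction and 35 with treat. A fit with the replicate number as a block called 1150 genes untreated and 621 after R848, but the numbers do not pair the samples: deviations of same-numbered arrays correlated at 0.00579, -0.0346 and -0.0793. The alignment limits the comparison to genes matched in both sets.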
